A study of Danio rerio with 4 samples.

Results

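klf2a and klf2b are the zebrafish paralogues of the gene of Krüppel-like factor 2, a zinc-finger transcription factor. They are 2 of the 31388 genes in the deposited tables, and both had at least 50 counts in a library, the floor that 15621 genes passed. Both were chosen by their higher levels at 20 days post amputation (dpa) in wild type and in the dusp6 mutant, so these increases are given as a description with no test. RNA of adult heart ventricles was sequenced in 4 libraries, with 1 library per group. Wild-type (WT) fish carried the AB* genotype and mutant fish were dusp6 pt30a/pt30a, and each genotype was sampled uninjured or 20 days after resection of part of the ventricle. All fish were between 6 months and 1 year old. How many ventricles went into a library is not known from the labels, which name no transgene.

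Klf2 is known as a mechanosensitive factor of endothelium and endocardium, where fluid shear stress raises its transcription. In zebrafish hearts klf2a in the endocardium depends on oscillating flow and acts in valve formation, with the channels Trpv4, Piezo1 and Pkd2 named among its upstream sensors. In mammalian endothelium the kinases MEKK3, MEK5 and ERK5 and the MEF2 factors lead to Klf2, and the cerebral cavernous malformation (CCM) proteins with their receptor Heg1 restrain it. Klf2 is also made by lymphocytes and other blood cells. Dusp6, the phosphatase whose gene carries the mutation, acts mainly on the related kinase ERK.

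The libraries held between 55197408 and 63222206 counts. The heart muscle gene myl7 (encoding a myosin light chain of the heart) was measured at 17757 to 18935 CPM, where CPM (counts relative to the library total) were scaled by TMM, a trimmed-mean normalization. The dusp6 gene itself was measured at 85.0 and 183 CPM in the uninjured and at 105 and 121 CPM in the 20 dpa libraries, WT before mutant. The labels do not say how the allele changes the gene, so these levels do not check them. Summed cardiomyocyte markers lay between 96052 and 102270 CPM in the 4 libraries. With 1 library per group the spread between animals is unknown, and each 95% interval below covers counting error only. Reads are not independent molecules, so the intervals may be too narrow even for that error. Injury state and any difference in library handling cannot be told apart, because the headers follow one naming pattern for uninjured columns and another for 20 dpa columns.

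klf2a (ENSDARG00000042667) had 1609 counts in the WT and 1285 in the mutant uninjured library, and 3194 (WT) and 4068 (mutant) at 20 dpa. These counts correspond to 24.0, 21.0, 58.0 and 77.8 CPM in the same order. Both uninjured libraries were low and both 20 dpa libraries high, with the dusp6 mutant lowest before and highest after resection. No pair of neighbours in this order had overlapping counting intervals. The nearest pair was dusp6 uninjured, with an interval of 19.8 to 22.1 CPM, and WT uninjured, with 22.9 to 25.2 CPM.

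klf2b (ENSDARG00000040432) had 651, 933, 1788 and 2720 counts in WT uninjured, dusp6 uninjured, WT 20 dpa and dusp6 20 dpa. Its levels were 9.72, 15.2, 32.5 and 52.0 CPM. The order thus differed from that of klf2a only in the uninjured pair, where klf2b was higher in the mutant. Neighbours in this order also had separate counting intervals, which say nothing of the spread between hearts.

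**Figure D1:**
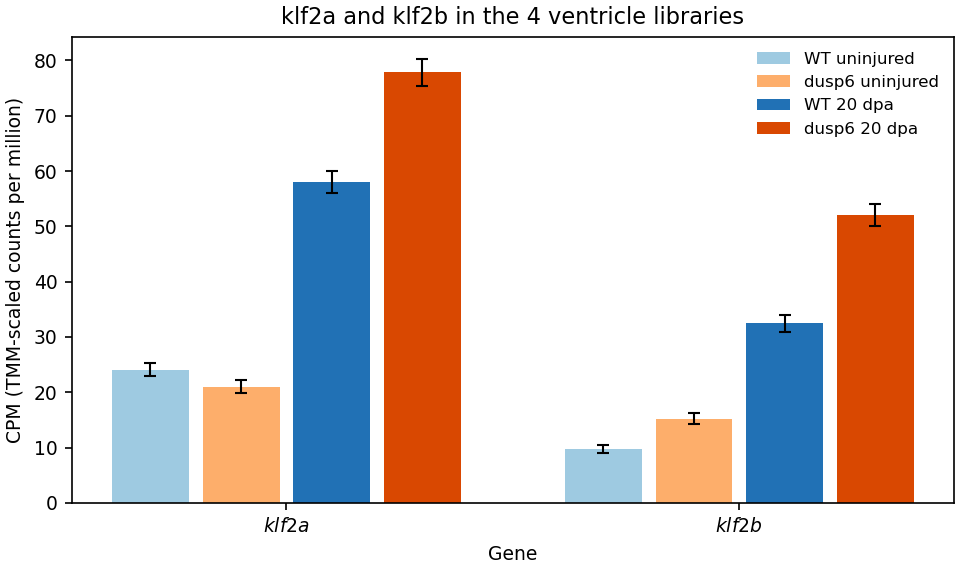
Bars give the level of klf2a and klf2b in TMM-scaled CPM in each of the 4 libraries, and error bars are 95% counting intervals. Both 20 dpa libraries stood above both uninjured libraries for each gene, with klf2a at 58.0 and 77.8 CPM and klf2b at 32.5 and 52.0 CPM after resection.

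Each 20 dpa library was set against the uninjured library of its own genotype, so that the genotypes share no library. In WT klf2a was 2.41-fold higher at 20 dpa (interval 2.27 to 2.56) and klf2b 3.34-fold higher (3.05 to 3.66). In the mutant klf2a was 3.71-fold higher (3.49 to 3.96) and klf2b 3.42-fold higher (3.17 to 3.69). Of all genes above the floor, 3.5% were at least 2-fold higher in WT and 3.82% in the mutant on log2(CPM + 1), and 1.29% were so in both. klf2a lay higher than 98.1% of genes by its WT difference and 99.3% by its mutant difference, and klf2b higher than 99.3% and 99.1%. Both genes were selected on this contrast, so nothing is read from these shares or places. The authors' deposited table, which uses both uninjured libraries as the reference, lists folds of 2.56 and 3.49 for klf2a and of 2.58 and 4.22 for klf2b, in WT and dusp6.

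The uninjured reference mattered more for klf2b than for klf2a. Against the mean of both uninjured libraries klf2b was 2.60-fold higher in WT and 4.17-fold higher in the mutant, while the own-library folds above are close to each other. The fold of the mutant divided by the fold of WT was 1.54 for klf2a (counting interval 1.41 to 1.68) and 1.02 for klf2b (0.912 to 1.15). Whether the genotypes differ in their response could not be tested with 1 library per group.

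The genes were chosen by their rise in each genotype and not by a genotype difference, although earlier results of these data were known. Between uninjured libraries klf2a was at 0.872 of the WT level in the mutant (0.810 to 0.939), and klf2b was 1.57-fold higher (1.41 to 1.73). At 20 dpa klf2a was 1.34-fold higher in the mutant (1.28 to 1.41) and klf2b 1.60-fold higher (1.51 to 1.70). klf2b was therefore higher in the mutant by a similar factor in both states, and klf2a changed sides. An edgeR quasi-likelihood fit over the 4 libraries, with additive terms for genotype and injury, has 1 residual degree of freedom. It gave a genotype difference (mutant minus WT) of 0.66 on the log2 scale for klf2b, with an adjusted p of 0.410 and an unadjusted p of 0.00471. For klf2a the difference was 0.12, with an adjusted p of 0.892 in the same edgeR fit. Neither gene passed an adjusted p of 0.05, and the fit called only 1 gene, 0.0064% of those tested, with 1380 at an unadjusted p under 0.05. DESeq2 on the same design gave 0.66 with a standard error of 0.22 for klf2b (adjusted p 0.140) and 0.11 with a standard error of 0.24 for klf2a. These results do not show that the genotypes are alike.

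Levels of the paralogues were compared per length, in the RPKM of the authors (reads per kilobase of gene model, scaled by the library total). The klf2b gene model of the tables is 1.66 times as long as that of klf2a. klf2a stood at 10.4, 8.66, 24.0 and 30.0 RPKM in WT uninjured, dusp6 uninjured, WT 20 dpa and dusp6 20 dpa. klf2b stood at 2.53, 3.78, 8.07 and 12.0 RPKM in the same order. klf2a was the more abundant paralogue in each library, with 80.4% of their summed RPKM in WT uninjured and 69.6%, 74.8% and 71.3% in the others. The ratio of klf2a to klf2b was 4.11 in WT uninjured (counting interval 3.75 to 4.51) and 2.29 in dusp6 uninjured (2.10 to 2.495). At 20 dpa the ratio was 2.97 in WT (2.80 to 3.15) and 2.49 in the mutant (2.37 to 2.61). By counting intervals alone, both WT libraries were above both mutant libraries and apart from each other. How reads that match both paralogues were assigned is not known from the labels or headers.

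**Figure D2:**
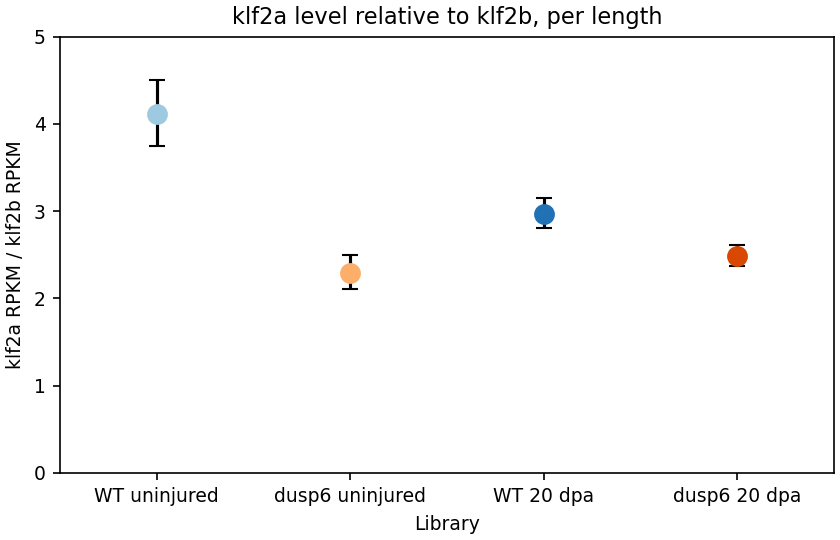
Points give the RPKM of klf2a divided by that of klf2b in each library, with 95% counting intervals. The ratio was 4.11 in WT uninjured and lay between 2.29 and 2.97 in the other 3 libraries.

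Other genes of the KLF family were described next, since the factors share a DNA-binding zinc-finger domain. Apart from klf2a and klf2b, 19 of 25 listed names were matched and 16 passed the floor. By RPKM klf2a ranked 4 of 18 KLF genes in both uninjured libraries and 1 in both 20 dpa libraries. klf2b ranked 11 (WT) and 8 (mutant) uninjured and 6 and 5 at 20 dpa. Both genes were chosen for their rise, so nothing is read from their higher ranks at 20 dpa. klf11a led in WT uninjured at 21.3 RPKM and klf11b in dusp6 uninjured at 26.4 RPKM.

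klf4, a close relative that shear stress also induces in mammalian endothelium, was low before resection at 40 and 24 counts in WT and dusp6 uninjured. At 20 dpa the counts were 196 and 208, making klf4 5.96-fold higher in WT (interval 4.22 to 8.59) and 10.2-fold higher in the mutant (6.65 to 16.2). On log2(CPM + 1), klf4 was the only one of the 16 other KLF genes at least 2-fold higher in either genotype. It passed the floor of 50 counts only through its 20 dpa libraries, so a gene admitted in this way had to be higher there.

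klf11b, of the TGF-beta-inducible KLF10 and KLF11 branch, went the other way. Its uninjured levels were 41.6 CPM in WT and 60.5 CPM in the mutant, and its 20 dpa levels 18.5 and 12.97 CPM. The gene was 2.24-fold lower at 20 dpa in WT and, in the mutant, 4.66-fold lower. Background shares for at least 2-fold lower genes were 2.14% in WT, 4.14% in the mutant and 0.979% in both. klf9, a gene that glucocorticoids induce, differed between genotypes, at 2.76 and 4.11 CPM uninjured but 5.37 CPM in WT 20 dpa and 1.55 CPM in dusp6 20 dpa. klf17, a zebrafish gene of blood and hatching gland, was at 14.0 and 15.0 CPM uninjured and 28.1 and 27.7 CPM at 20 dpa.

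The remaining KLF genes moved less than 2-fold on log2(CPM + 1) against their own uninjured library. klf8, klf3 and klf6a were 0.52 to 0.76 higher on this scale in both genotypes. klf7b, klf12a, klf1 and klf13 had differences of 0.06 to 0.49, and klf12b and klf11a lay below 0 in both. klf15 was at -0.09 in WT and 0.96 in the mutant, klf5a at 0.41 and -0.42, and klf7a at -0.41 and 0.05. klf5b, klf6b and klf18 had fewer than 50 counts in each library. The median of the 16 genes was 0.43 in WT and 0.37 in the mutant, against medians of -0.0028 and -0.0085 over all genes above the floor. In the additive edgeR fit 0 of the 16 passed for injury, with 8 at an unadjusted p under 0.05, a level that 27.4% of all genes reached. DESeq2 called 4 higher and 1 lower, against 4.99% and 3.94% of all genes.

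**Figure D3:**
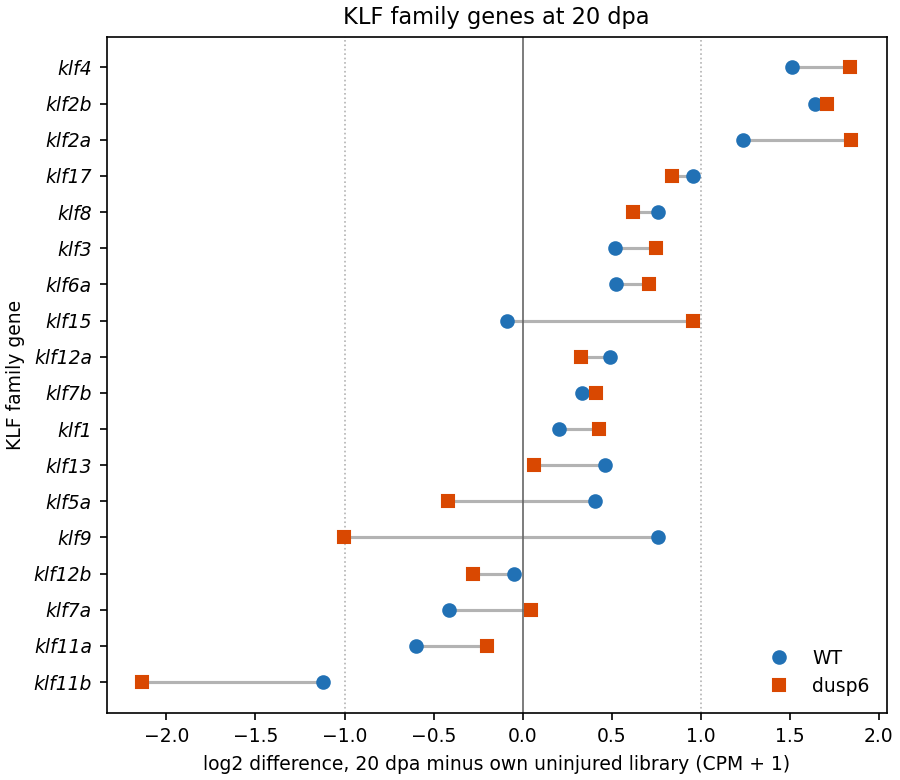
Each row is a KLF family gene above the floor, and points give the log2 difference in CPM + 1 between the 20 dpa library and the uninjured library of the same genotype (circles WT, squares dusp6). Dotted lines mark 2-fold differences. klf4, klf2b and klf2a lie to the right of the upper line in both genotypes and klf11b to the left of the lower line.

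Of the genes that sense flow or carry its signal to klf2, most differed little at 20 dpa. For this list and those that follow, counts of 2-fold genes use log2(CPM + 1). Genes named beyond the 3 with the largest differences in each were picked out after their values had been seen. In this list 34 of 39 matched genes passed the floor, and 2 were at least 2-fold higher in WT (heg and p2rx4a), with none lower. In the mutant 1 was higher (heg) and 2 were lower (MEF2A (2 of 2) and prkaa2). Of all genes 3.5% were higher and 2.14% lower in WT, and 3.82% and 4.14% in the mutant, so these counts were near the background. The medians were -0.04 in WT and -0.07 in the mutant, near those of all genes. heg, the zebrafish Heg1 gene, had uninjured levels of 51.6 CPM in WT and 42.6 CPM in the mutant, and 20 dpa levels of 109 and 104 CPM. It was 2.11-fold higher in WT (2.02 to 2.20) and 2.43-fold higher in the mutant (2.32 to 2.55). MEF2A (2 of 2), a gene of a MEF2 factor, was at 3.38 and 6.28 CPM uninjured and at 1.92 CPM in WT 20 dpa and 0.517 in dusp6 20 dpa. prkaa2, of the energy-sensing kinase AMPK, was at 25.2, 24.2, 18.1 and 10.1 CPM in the order used above.

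The channel gene trpv4 was at 62.2 and 47.7 CPM uninjured and at 86.1 and 73.8 CPM at 20 dpa, in WT and the mutant. piezo1 lay between 14.8 and 18.3 CPM in the 4 libraries, and pkd2 between 12.0 and 16.6 CPM. The kinase genes map3k3, map2k5 and mapk7, which encode MEKK3, MEK5 and ERK5, had differences between -0.43 and -0.02 at 20 dpa on log2(CPM + 1). The CCM genes krit1, ccm2, pdcd10a and pdcd10b had differences between -0.15 and 0.25. Of the 34 genes the additive edgeR fit called 0 for injury, with 10 at an unadjusted p under 0.05, near the 27.4% of all genes. DESeq2 called 2 higher and 3 lower, beside 4.99% and 3.94% of all genes.

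Genes that respond to flow or that Klf2 is known to control formed a mixed group, with 43 of 48 matched genes above the floor. On log2(CPM + 1), 7 were at least 2-fold higher and 0 lower in WT at 20 dpa. In the mutant 3 were higher (cav1, tek and tgfb3) and 3 lower. The shares of all genes were 3.5% higher and 2.14% lower in WT and 3.82% and 4.14% in the mutant, so the mutant's counts were close to background numbers. The medians were 0.19 in WT and -0.03 in the mutant. Of the 43, cav1 and tek were at least 2-fold higher in both genotypes, as were 1.29% of all genes. cav1, which encodes the caveolar coat protein caveolin 1, was at 90.8, 75.5, 233 and 219 CPM in WT uninjured, dusp6 uninjured, WT 20 dpa and dusp6 20 dpa. It was 2.56-fold higher in WT and 2.90-fold higher in the mutant, and rose for injury in the additive edgeR fit with an adjusted p of 0.048. This call was lost with total-count scaling (adjusted p 0.053 by edgeR) and at a floor of 250 counts (0.064), and DESeq2 gave 1.1e-13. That fit called no other gene of the list, against 0.538% of all genes called higher and 0.282% called lower. DESeq2 called 4 higher and 4 lower, beside 4.99% and 3.94% of all genes.

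tek, the angiopoietin receptor gene, was at 67.0 and 55.6 CPM uninjured and at 138 and 146 CPM at 20 dpa, in WT and the mutant. edn1, the endothelin 1 gene, was lower in both, at 7.83 and 11.3 CPM uninjured against 3.72 and 3.67 CPM at 20 dpa. In WT its difference was less than 2-fold on log2(CPM + 1), the scale of the counts above. notch1b, which flow and klf2a regulate in zebrafish endocardium, was at 299 and 265 CPM uninjured and at 190 and 192 CPM at 20 dpa. fn1b, a fibronectin gene linked to klf2a in zebrafish valves, was 2.79-fold higher in WT and at 0.939 of the uninjured level in the mutant. egr1, an immediate early gene, was 4.88-fold higher in WT and at 0.975 of the uninjured level in the mutant.

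**Figure D4:**
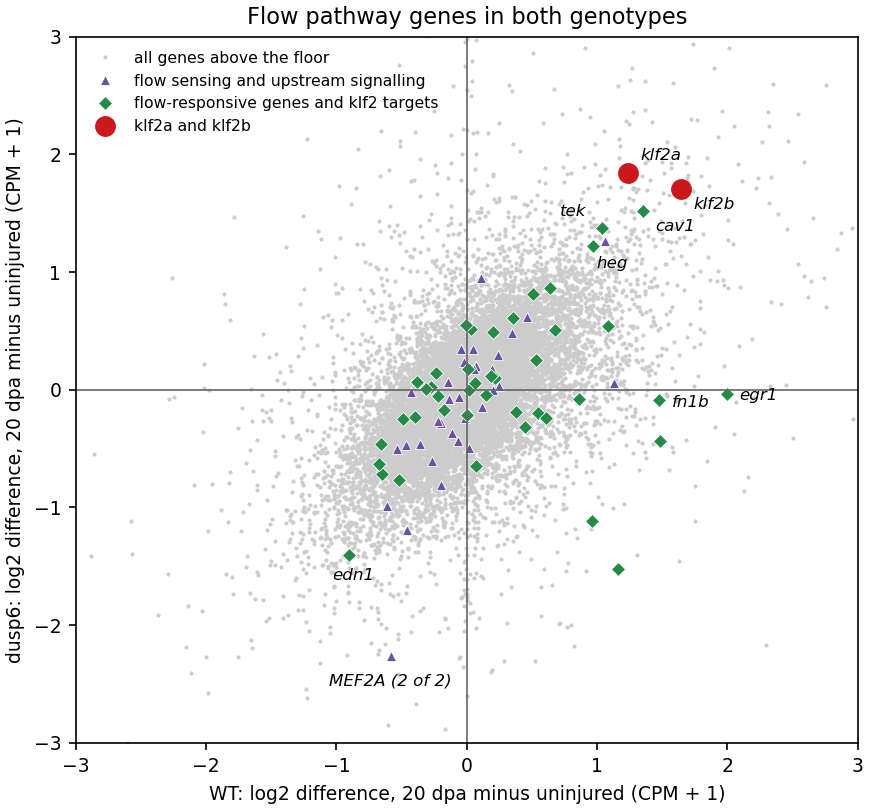
Each point is a gene, placed by its log2 difference in CPM + 1 at 20 dpa against the own uninjured library in WT (horizontal) and in the mutant (vertical). Both klf2 genes lie in the upper right near cav1, tek and heg, while fn1b and egr1 lie to the right near 0 in the mutant, and 41 of the grey genes fall outside the plotted range of 3.

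The level of klf2a and klf2b was then set beside markers of the cells that could hold their RNA. In bulk tissue more cells of a type and more RNA per cell cannot be told apart. Endothelium and endocardium markers, 34 genes in all, summed to 3079 and 3059 CPM uninjured and to 3276 and 3255 CPM at 20 dpa, in WT and the mutant. With TMM scaling their sum was 1.06-fold higher at 20 dpa in each genotype, and total-count scaling would leave it almost level. None of the 34 was at 0 in all libraries. Relative to this sum klf2a was 2.27-fold higher in WT and 3.49-fold higher in the mutant, and klf2b 3.14-fold and 3.21-fold. Both genes were chosen for their rise, so their folds are not set against the unselected sum as a test. Of the 31 markers above the floor, 2 were at least 2-fold higher and 0 lower in WT, and 5 were higher (tek, ramp2, ecscr, flt1 and rasip1) and 1 lower (stab1) in the mutant. Against all genes (3.5% higher in WT, 3.82% higher and 4.14% lower in the mutant), the 2 in WT and the 1 lower in the mutant were near the background. By size of difference tek, ramp2 and ecscr led. ramp2, the coreceptor gene of adrenomedullin signalling, was at 62.1, 52.2, 144 and 117 CPM in the order used above. ecscr, an endothelial surface protein gene, was at 32.8, 26.0, 59.3 and 65.0 CPM. The pan-endothelial cadherin gene cdh5 stayed between 235 and 257 CPM. In the additive edgeR fit only ramp2 of the 31 passed for injury, with an adjusted p of 0.048, again 0.053 with total-count scaling and 0.064 at a floor of 250 counts. DESeq2 called 6 higher and 2 lower, beside 4.99% and 3.94% of all genes. The lists share genes, among them tek, cdh5 and notch1b.

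Summed markers of other cells also differed between libraries, and their part in the klf2 values was not tested. Lymphocyte markers summed to 55.0, 48.4, 71.8 and 44.0 CPM in WT uninjured, dusp6 uninjured, WT 20 dpa and dusp6 20 dpa. Of these 18 listed genes 7 passed the floor, namely cd3eap, ptprc, coro1a, tox, ikzf1, ighv1-4_1 and s1pr4. The listed cd3eap is not specific to lymphocytes. Among the listed genes under the floor were lck, zap70, cd4, cd8a, cd79a, cd79b and pax5, so this sum is not a measure of lymphocytes alone. Macrophage markers summed to 482, 591, 696 and 493 CPM and neutrophil markers to 7.12, 17.1, 21.2 and 19.3 CPM. Epicardium markers summed to 1020, 874, 1802 and 1417 CPM. Red blood cell markers summed to 13031, 9727, 15890 and 16514 CPM, with the mutant higher at 20 dpa, a direction that total-count scaling would reverse. Mural cell sums lay between 1524 and 1799 CPM, thrombocyte sums between 98.4 and 140 CPM, and skeletal muscle sums between 6196 and 7549 CPM. Of 16 matched skeletal muscle genes 10 passed the floor. Under it were mylpfb, tnnt3a, tnni2a.4, tnni2b.1, myhz1.1 and myhz1.3, so the skeletal muscle sum is not a measure of that tissue alone. The sums of neutrophil, epicardium, red blood cell and skeletal muscle markers were, like klf2a and klf2b, higher in both 20 dpa libraries than in both uninjured ones. So was the endothelium and endocardium sum given above, but only with TMM scaling. Total-count scaling would put that sum in the dusp6 20 dpa library below both uninjured ones. klf2a and klf2b were chosen on this contrast, so nothing is read from the likeness. At least 2-fold higher in WT and in the mutant were 5 and 3 of 21 macrophage, 1 and 1 of 7 neutrophil, 1 and 0 of 7 lymphocyte, and 3 and 4 of 12 epicardium markers. The same counts were 1 and 1 of 12 for red blood cells, 0 and 0 of 7 for thrombocytes, 1 and 1 of 11 for mural cells, and 6 and 5 of 10 for skeletal muscle, beside 3.5% and 3.82% of all genes. Of these 8 lists, at least 2-fold lower in WT were 1 red blood cell and 1 thrombocyte marker, and in the mutant 1 neutrophil marker, beside 2.14% and 4.14% of all genes. No matched marker of these lists was at 0 in all 4 libraries.

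**Figure D5:**
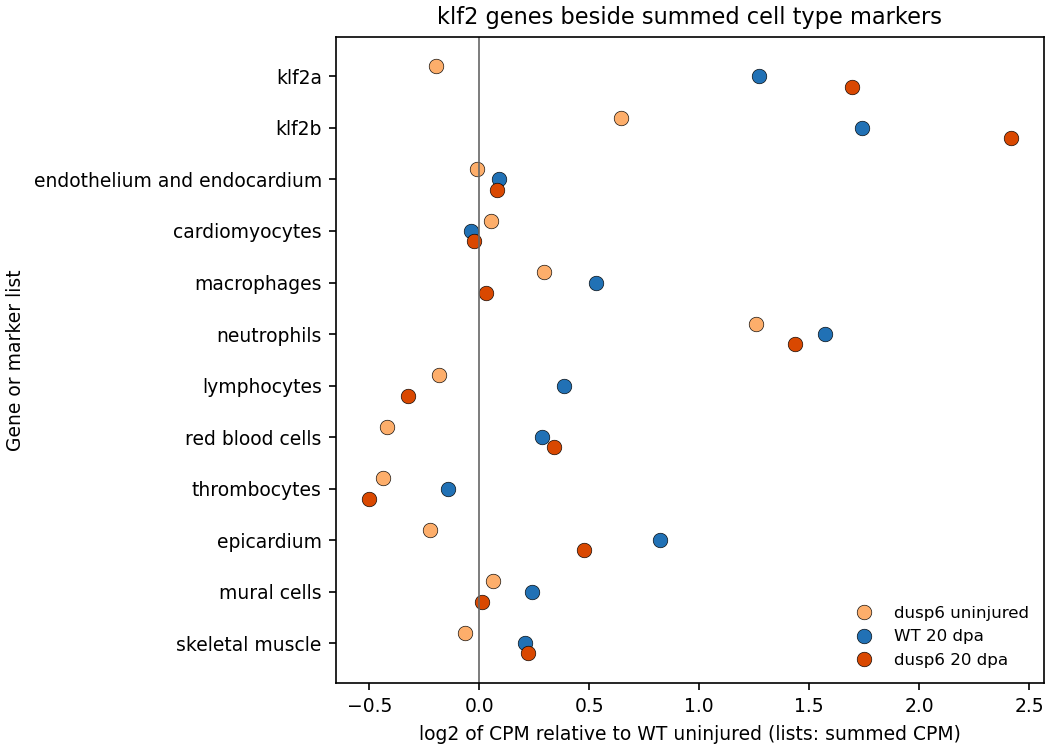
Points give the log2 level relative to WT uninjured of klf2a, of klf2b and of the summed CPM of each marker list, for the other 3 libraries. With TMM scaling the endothelium sum was 1.06-fold its own uninjured level at 20 dpa in each genotype, and total-count scaling would leave it almost level. klf2a and klf2b, chosen for their rise, lie to the right of 0 in both 20 dpa libraries, so no contrast with the unselected sums is read from their place. The neutrophil sum also lies to the right in all 3 libraries, since the dusp6 uninjured library already held 17.1 CPM against 7.12 in WT uninjured.

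Immediate early and heat shock genes, which respond quickly to stress and tissue handling, were examined as a further list. It summed to 2433 and 3133 CPM uninjured and to 3623 and 3780 CPM at 20 dpa, WT before mutant. With TMM scaling this is the library order of klf2b and not that of klf2a. Total-count scaling would put WT 20 dpa highest, which is the order of neither gene. Of 41 genes above the floor, 5 were at least 2-fold higher and 1 lower (nr4a2a) in WT, and 5 were higher and 0 lower in the mutant. Of all genes 3.5% were higher and 2.14% lower in WT, and 3.82% and 4.14% in the mutant. The heat shock genes hsp90aa1.1, hsp70l and hsp90aa1.2 led and were among the 5 in both genotypes, with egr1 and mych in WT and myca and hsp70.1 in the mutant. hsp90aa1.1 was at 12.0, 17.6, 122 and 122 CPM in the order used above, and rose in the additive edgeR fit with an adjusted p of 0.048, a call lost under the same alternatives as that of cav1. hsp70l was at 2.72, 1.26, 8.60 and 12.9 CPM, and hsp90aa1.2 at 28.8, 16.9, 61.3 and 64.6 CPM. With TMM scaling both had the library order of klf2a and not that of klf2b. Total-count scaling would put hsp90aa1.2 lower in the mutant than in WT at 20 dpa, unlike klf2a. hsp90aa1.1, higher in the mutant than in WT uninjured, did not have the order of klf2a. How many of all genes have either order is not given here. The list held no other called gene by edgeR and 6 higher by DESeq2, which called 4.99% of all genes higher. The part of these genes in the klf2 values was not tested.

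Between genotypes the KLF, upstream, flow-responsive, endothelial, and immediate early and heat shock lists gave no called gene in the additive edgeR fit or by DESeq2, which called 0.461% of all genes higher and 0.493% lower in the mutant. At an unadjusted p under 0.05, against 8.83% of all genes, edgeR gave 1 of 16 KLF genes, 1 of 34 upstream genes, 4 of 43 flow-responsive genes, 1 of 31 endothelial markers and 4 of 41 immediate early and heat shock genes. By DESeq2 these counts were 0, 0, 4, 2 and 4, against 5.95% of all genes. Among the other marker lists DESeq2 called 2 epicardium markers, 1 mural cell, 1 cardiomyocyte and 1 skeletal muscle marker lower in the mutant and 1 skeletal muscle marker higher. At an unadjusted p under 0.05 edgeR gave 5 of 11 mural cell, 6 of 10 skeletal muscle and 4 of 12 epicardium markers. It gave 3 of 21 macrophage, 2 of 7 thrombocyte, 2 of 12 red blood cell and 2 of 19 cardiomyocyte markers. No neutrophil or lymphocyte marker above the floor reached this level. Among uninjured libraries 1.77% of genes were at least 2-fold higher in the mutant and 1.48% lower, and at 20 dpa 1.41% were higher and 1.82% lower. On log2(CPM + 1), none of the 16 KLF genes differed 2-fold between the uninjured libraries, and at 20 dpa only klf9 did, being lower in the mutant. klf2a and klf2b stayed below 2-fold between genotypes in both states.

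Gene patterns over the 4 libraries were ranked by Euclidean distance of centred log2(CPM + 1) to klf2a and to klf2b. The 9130 genes ranked had at least 250 counts in a library and passed a symbol filter. The filter left out upper-case symbols and clone-type prefixes such as si and zgc, and with them genes such as sirt1. The ranking is a description over 4 points that share the injury contrast used to choose the genes. The genes nearest to klf2a were adamts5, a matrix protease gene, at a distance of 0.0993, then pfkfb2b, pip5k1bb, crabp2b and fkbp7, at up to 0.181. adamts5 was at 1.24, 1.06, 4.45 and 5.76 CPM in WT uninjured, dusp6 uninjured, WT 20 dpa and dusp6 20 dpa. pip5k1bb, a phosphoinositide kinase gene, had levels of 20.7, 16.0, 43.0 and 59.1 CPM in the same order. pfkfb2b, whose enzyme sets the level of a glycolysis regulator, had 5.03, 4.18, 11.9 and 16.1 CPM. The genes nearest to klf2b were fads2, a fatty acid desaturase gene, at 0.293, then grn2, oard1, dixdc1a and cyp51, at up to 0.430. fads2 was at 0.58, 0.979, 3.39 and 4.94 CPM and grn2 at 0.254, 0.897, 3.76 and 7.41 CPM. oard1 had levels of 8.75, 13.8, 20.8 and 38.9 CPM. Adding 1 CPM shrinks the folds of genes near or below 1 CPM, so nearness on this scale does not mean like folds. klf2b was number 104 in the order from klf2a and klf2a number 14 in the order from klf2b, both at a distance of 0.598.

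Genes beside klf2a and klf2b on their chromosomes were checked in the RefSeq gene order (assembly GRCz12tu), which lists no gene overlapping either. The protein-coding neighbours of klf2a present in the tables, fam32a and eps15l1a, had differences at 20 dpa of -0.34 and -0.26 in WT and of 0.25 and -0.03 in the mutant on log2(CPM + 1). Those of klf2b, ap1m1 and calr3b, had 0.15 and 0.74 in WT and -0.03 and 0.25 in the mutant. None of these neighbours differed 2-fold.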

How the data were processed

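The labels name RNA sequencing of ventricles that were frozen before extraction with Trizol and a column kit. Per the file headers, the deposited tables hold raw counts per gene (whole numbers headed as expression values), normalized values, which equal CPM of each column's own total, and RPKM. The authors' signed fold change, deposited as a score beside group means, and the p-value of their EDGE test complete the tables, per the file headers; the p-values and deposited means were not used. No label or header names the aligner, genome build or annotation. Both tables repeat the same uninjured columns, which entered once.

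Counts were scaled by TMM in edgeR 4.0.16 (R 4.3.3), with factors of 0.938 to 1.06. Folds of named genes are ratios of scaled counts with exact conditional 95% counting intervals. Differences on log2(CPM + 1) and counts of 2-fold genes used genes with at least 50 counts in 1 or more libraries. The additive edgeR quasi-likelihood fit, with Benjamini-Hochberg adjustment over 15621 genes, takes its residual from how far the differences of the groups part. The fit and the fold intervals were also run on simulated data. The changes simulated for the fit were larger than the genotype differences of klf2a and klf2b, and the intervals were simulated with counting error only. Neither simulation covers the spread between animals in these libraries. DESeq2 1.42.0, other scalings, floors, pseudocounts and uninjured references were alternatives. Named were all KLF genes, the 3 genes per described list with the largest mean absolute difference against the own uninjured libraries, and the 5 genes nearest in pattern. The rule also covers the other marker lists, which are given as sums and counts, with genes named only for lymphocytes and skeletal muscle. One gene that the rule names is not reported here. Any other named gene was chosen after its values were seen. Of 352 list names, 320 were matched, 14 of them through the gene name table. The members, lists and tests were chosen with earlier results of these data known. Other steps used Python 3.11.15 with scipy 1.17.1, numpy 2.4.6 and pandas 2.3.3, and figures matplotlib 3.10.9. No protein, promoter or genome sequence was used here.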

Additional observations from a re-analysis of the deposited data

Results flagged for a closer look

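Some genes went one way in one genotype or state and the opposite way in the other, with counting intervals clear of 1 on both sides. With 1 library per group none of these differences was tested. How many of all genes do the same is not given here, so the listed genes are not set apart from the rest. Values are log2 differences between the 2 contrasts. klf2a was below WT in the uninjured mutant and above it at 20 dpa, a difference of 0.6222. Other genes on the higher side at 20 dpa and the lower side uninjured, mutant against WT, were klf15 (1.191), klf11a (0.4042), tek (0.3418), ecscr (0.4726), hsp70l (1.698) and hsp90aa1.2 (0.8453). The reverse held for klf11b (-1.055) and MEF2A (2 of 2) (-2.793). klf5a (-1.573) and klf9 (-2.367) did so too, and were also higher at 20 dpa in WT and lower in the mutant, against their own uninjured libraries, by the same differences. klf5a rests on at most 88 counts in a library. All these sides were taken with TMM scaling, whose factors at 20 dpa were 0.998 in WT and 0.938 in the mutant. Total-count scaling would put tek and hsp90aa1.2, each 1.053-fold above WT at 20 dpa, below WT there. klf11a, at 1.087-fold, would stay above WT by a smaller margin.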

How the results depend on the processing

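klf2a and klf2b stayed above their uninjured level at 20 dpa under every scaling, pseudocount and uninjured reference tried. Against the mean of both uninjured libraries klf2a was 2.58-fold (WT) and 3.46-fold (dusp6) higher and klf2b 2.60-fold and 4.17-fold. Against the other genotype's uninjured library these folds were 2.77, 3.24, 2.13 and 5.35. Total-count scaling gave 3.45 for klf2a in dusp6, and 1.26 for klf2a and 1.51 for klf2b between genotypes at 20 dpa. Leaving out 1 library leaves the genotype difference of the other state, with no test. It ranged from -0.197 to 0.425 (log2) for klf2a, with the sign of klf2a reversed without either 20 dpa library, and from 0.646 to 0.681 for klf2b. Adjusted p for klf2b ranged from 0.140 to 0.485 over the tools and floors.

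The number of genes called moved with the tool, scaling and floor. For injury it was 128 in the edgeR fit with TMM and a floor of 50 counts, 333 with RLE scaling, 1 with total counts, 1394 by DESeq2, 0 at a floor of 250 counts and 987 with no floor. For genotype it was 1, and 149 by DESeq2, 0 at a floor of 250 counts and 22 with no floor. The cause was not tested. Calls within the lists moved both ways as well. With RLE scaling, and also with no floor, edgeR called further list genes for injury, heg, tek, tgfb3 and klf4 among them, as it called more of all genes. A pseudocount of 10 CPM reduced the 2-fold genes to 161 of 882 (WT response), 235 of 1243 (dusp6 response), 75 of 508 (uninjured genotypes) and 64 of 505 (20 dpa genotypes). Among list counts and fold ratios, added after seeing the data, 247 of 284 stayed within 1.5 times or within counting error. These include the list counts with no floor, which could not change, because genes under the floor cannot reach 2-fold on log2(CPM + 1). They also include counts that were 0 in both settings, so the number does not measure how stable the lists are. klf4 passed 2-fold neither at a pseudocount of 10 CPM nor at a floor of 250 counts, which it does not reach. No paired analysis was possible because each group has 1 library and the labels give no replicate numbers.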
